A study of Strongylocentrotus purpuratus and Patiria miniata with 4 samples.

Results

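Tbrain (Tbr) belongs to the T-box family of transcription factors and acts in the early embryos of echinoderms. The regions described here are all 13977 Tbr peaks listed for a sea star, the bat star Patiria miniata, out of 17126 peaks listed for the sea star and the purple sea urchin Strongylocentrotus purpuratus together. Every row of the sea star peak list was taken, and no value was used to choose among them. A peak is a stretch of the genome where chromatin immunoprecipitation followed by sequencing (ChIP-seq) gave more DNA fragments than the background set from the input, which is chromatin of the same kind sequenced without immunoprecipitation.

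The ChIP group is 1 library of pooled whole embryos, with no genotype or treatment named in the labels, at the hatched blastula stage, 30 hours after fertilization, precipitated with a custom antibody against the sea star's own Tbr protein. The input group is 1 library of the same species, stage and age with no antibody. Embryos were cultured at 15 °C in artificial seawater and fixed in 1% formaldehyde, and chromatin from 2 to 3 separately fertilized cultures was pooled. With 1 library on each side there is no spread between replicates, so the values below are descriptions with no p-value. Intervals cover counting error, or the order of the peaks within the 1 list, and peaks are not replicates.

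T-box factors bind DNA through a conserved domain and switch on genes that set the fate of early embryonic tissues. In sea stars, tbr is active in the cells that give rise to endoderm and mesoderm, where it is part of a gene circuit with otx and gatae, which encode a homeodomain and a GATA factor. In sea urchins its main embryonic domain is the lineage that builds the larval skeleton, a tissue that sea star larvae lack. The question the data address is where the factor sits on the genome at this stage. Genes near the peaks, among them the sea star targets of the study, and the DNA sequences under the peaks were not analysed here.

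Sea star Tbr peaks lay on a great many scaffolds, the assembled stretches of the genome, mostly with few peaks each. Scaffold lengths were not used, so counts per scaffold are not densities along the genome. The peaks lay on 8491 scaffolds, and 5472 of these (64.4%) held a single peak. A further 1784 scaffolds held 2 peaks, 666 held 3, 306 held 4 and 245 held 5 to 9. Only 18 scaffolds held 10 or more. Seen from the peaks, 39.2% were alone on their scaffold (exact binomial 95% interval 38.3% to 39.97%, counting error only), and the 18 crowded scaffolds took 2.02% of all peaks.

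The peaks of thinly and moderately filled scaffolds were alike in strength. Fold enrichment, the submitters' ratio of the ChIP signal at a summit to the background there, had a median of 6.22 on scaffolds with 1 peak, 6.16 with 2, 6.12 with 3, 6.14 with 4 and 6.09 with 5 to 9. The number of ChIP fragments at the summit, which could be computed back from the deposited values, had medians of 26 to 28 over the same classes. The background at the summit, called scaled input, had medians of 3.08 to 3.599 fragments. The 282 peaks of the 18 crowded scaffolds stood apart, with a median fold enrichment of 3.66, 66 ChIP fragments and a scaled input of 18.5 fragments. Crowding and input thus went together at the top of the list, and the part of the input in the number of peaks was not tested.

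**Figure D1:**
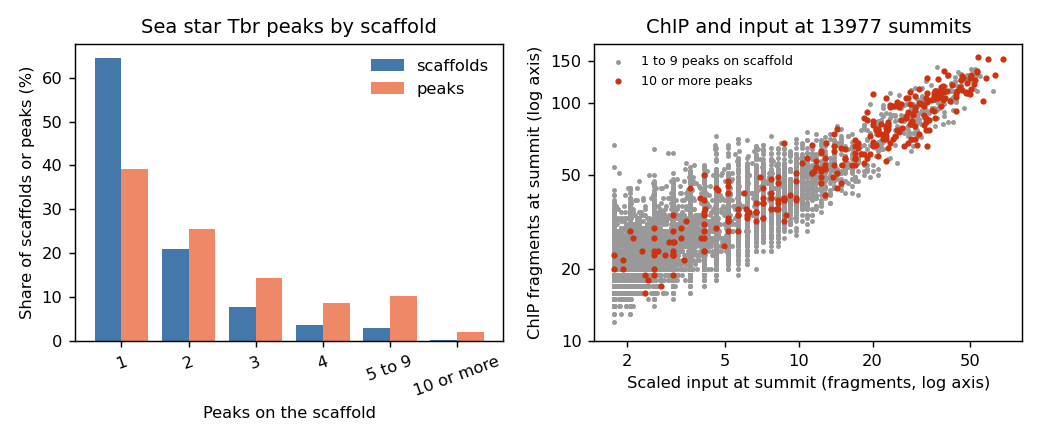
Left, share of the 8491 scaffolds and of the 13977 sea star peaks (bars, %) by the number of peaks on the scaffold; 64.4% of scaffolds have 1 peak. Right, ChIP fragments against scaled input at every summit (both axes logarithmic); the 282 peaks of scaffolds with 10 or more peaks (red) mostly lie at high input, with a median of 18.5 fragments.

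The crowded scaffolds were not all of one kind. Median scaled input ran from 1.65 to 21.2 times the genome-wide mean over the 18, and it was more than 5 times the mean on 11 of them. Scaffold3405, with 29 peaks between positions 17755 and 36445, had 52 to 153 ChIP fragments at its summits over 11.6 to 62.7 fragments of scaled input, and its fold enrichments ran from 1.81 to 4.22. On Scaffold442, 23 peaks between 25090 and 48361 had fold enrichments of 2.103 to 9.98. On Scaffold2718, 22 peaks between 32933 and 47801 had a median width of 129.5 bp, and on Scaffold5859 the 19 peaks between 21 and 19447 had one of 89 bp. Scaffold158 held the most peaks, 36, spread over 151232 bp from the first to the last summit, and their fold enrichments ran from 2.27 to 7.71.

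At the other end of the 18 was Scaffold268, with 10 peaks between 54645 and 202391. Its median scaled input was only 1.65 times that mean, its fold enrichments ran from 4.01 to 8.68, and its summits were 16792 bp apart at the median. Scaffold1358 had 10 peaks between 7970 and 29769, at 2.07 times the mean, with a median fold enrichment of 6.03. Scaffold19 had 10 peaks at 2.32 times the mean and a median gap of 15771 bp. These 3 scaffolds, singled out after their values were seen, had levels closer to those of thinly filled scaffolds than to those of Scaffold3405.

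The 5 scaffolds with the longest distance from first to last summit carried 3 to 7 peaks each. Scaffold2 had 5 peaks between 16184 and 344474, with ChIP fragments of 16 to 33 and fold enrichments of 3.14 to 8.12. Scaffold4 had 6 peaks between 72241 and 367484, the highest peak end of the list, with 22 to 49 fragments and fold enrichments of 2.67 to 6.25. Scaffold5 had 3 between 59920 and 352271, with 23 to 48 fragments and fold enrichments of 3.67 to 7.85. The highest scaled input on these 2 scaffolds was 16.96 and 12.3 fragments, above the 95th percentile of the list, 10.8. Scaffold38 had 7 peaks between 23084 and 258556, all with fold enrichments between 6.47 and 8.08. Scaffold17 had 5 between 126063 and 361257, with 20 to 26 ChIP fragments each. The median scaled input of all 5 scaffolds was 1.45 to 2.099 times the genome-wide mean. On Scaffold2 a stretch of 273541 bp between neighbouring summits held no listed peak, the largest such gap in the list.

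Scaffold numbers gave a rough order of length, as judged by where the last listed peak ended. Scaffolds numbered below 1000 had a median last peak end of 84424 and 2.79 peaks each, and those numbered from 10000 to below 20000 had 9614 and 1.33. For numbers from 40000 to below 100000 the median last end was 310 and there were 1.05 peaks per scaffold. A separate block of names, from Scaffold9000135 to Scaffold9003015, held 79 scaffolds with 1 peak each, none ending past base 487. Scaffold lengths themselves were not used here. Strength hardly followed this order, with a median fold enrichment of 5.95 in the first of these classes, 6.26 in the second, 5.998 in the third and 5.88 in the separate block.

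A good number of peaks sat on scaffolds with no listed peak beyond the first bases. On 1131 scaffolds the last listed peak ended within the first 1000 bases, and these held 1185 peaks. Their median fold enrichment was 6.05 (95% order-statistic interval 5.87 to 6.14), and their median width was 94 bp. On the 5391 scaffolds with a peak past base 10000, the 10363 peaks had a median fold enrichment of 6.14 (6.12 to 6.16) and a median width of 95 bp. Median scaled input was higher on the first group, at 3.599 fragments (both bounds of its interval 3.599) against 3.24 (3.08 to 3.498). Scaled input of the shortest window comes in steps of 0.514, so an interval can have no width. The intervals are over peaks of 1 list, and neither difference between the 2 groups was tested.

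Summits were frequent close to scaffold starts, and nearly all of these belonged to the scaffolds with no listed peak further in. There were 227 summits in the first 100 bases, 362 in the next 100, 219 in the 100 after these and 139 in the 100 after those. On scaffolds with a peak past base 10000 the same windows held 12, 14, 17 and 15 summits, with no rise towards the first base. These scaffolds held 99 summits between bases 1000 and 2000 and 331 between 2000 and 5000. Per base, the start windows were thus slightly fuller than these stretches, a difference of small counts that was not tested. The strongest peak near a start was on Scaffold9002693 at 10 to 145, where 54 ChIP fragments (exact Poisson 95% interval 40.6 to 70.5) stood against an input of 1.77, an enrichment of 19.9-fold. Scaffold44314 at 162 to 273 had 50 fragments (14.7-fold), and Scaffold31341 at 30 to 165 had 61 fragments (11.0-fold). Scaffold59997 at 37 to 141 had 52 fragments (11.5-fold), and Scaffold34233 at 56 to 174 had 42 fragments (14.1-fold). The windows of 1 kb and 10 kb from which the input is taken reach past the end of such scaffolds, so their background rests on less sequence.

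Sea star Tbr peaks were narrow, and most were close to the shortest width the list holds. That width was 84 bp. It was also taken as the fragment length for the steps of the input windows, rather than measured separately. The width of 84 bp was reached by 1826 peaks (13.1%), and 8573 peaks (61.3%) were at most 100 bp wide. The median was 95 bp (95% order-statistic interval 94 to 95), with quartiles of 87 and 110 bp. A width of 2 fragment lengths, 168 bp, was not exceeded by 13461 peaks (96.3%). In the sea urchin list, whose shortest width was 96 bp, 77.5% of 3149 peaks were within 2 times that width. The lists differ in species, antibody and stage together, and with 1 library each the difference could not be tested.

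Peaks of higher −log10 p were wider. The median width was 87 bp at a −log10 p of 5 to 8, 90 bp at 12 to 15, 106 bp at 20 to 30 and 121.5 bp at 30 to 50. The 13 peaks above 50 had a median of 140 bp and quartiles of 135 and 149 bp. Fold enrichment did not follow width in this way, with medians of 5.72 at 84 bp, 6.09 above this and up to 100 bp, 6.61 up to 150 bp, 6.004 up to 250 bp and 5.22 in wider peaks. An interval is the stretch past a limit that the summit also has to pass, so width and significance are not independent. Across the 13977 peaks the Pearson correlation of width with ChIP fragments was 0.29, and that of width with log2 scaled input was 0.19, as descriptions over peaks of 1 library.

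**Figure D2:**
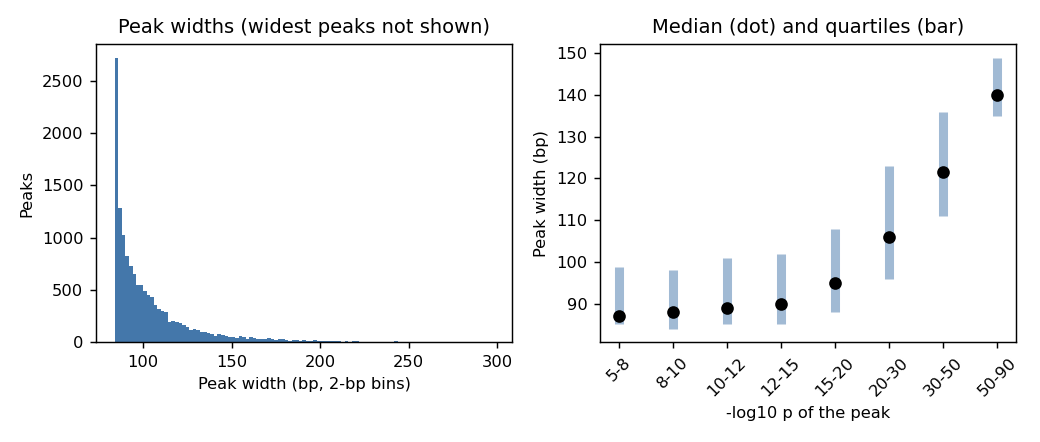
Left, number of sea star peaks by width in 2-bp bins, without the widest; the histogram starts at its highest bar, at 84 bp. Right, median width (dot) and quartiles (bar) by −log10 p of the peak, rising from 87 bp at 5 to 8 to 140 bp above 50.

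The strongest narrow peaks, up to 100 bp, were not the strongest of the list. Scaffold81 at 238564 to 238662 had 110 fragments (90.4 to 133) against an input of 23.5 fragments, or 4.53-fold. Scaffold5919 at 29414 to 29512 had 60 fragments against 6.22, or 8.45-fold. The class above 100 and up to 150 bp held the top of the list. In it, Scaffold11110 at 8895 to 9029 had 67 fragments (51.9 to 85.1) and was enriched 24.6-fold, the highest of all, and Scaffold3648 at 43227 to 43358 had 64 fragments and was enriched 18.2-fold. Above 150 and up to 250 bp the first peaks by −log10 q were on Scaffold5733 at 24017 to 24187 and on Scaffold5158 at 4428 to 4583. Their fold enrichments were 12.2 and 11.7. Among the 33 peaks wider than 250 bp, Scaffold7347 at 25448 to 25714 was enriched 18.2-fold, and Scaffold1486 at 3703 to 3953 11.7-fold. The second highest fold enrichment, 19.9, was that of the peak near the start of Scaffold9002693 described above. The remaining peak among the 5 of highest fold enrichment was on Scaffold1313 at 43583 to 43730, with 62 fragments, or 16.0-fold.

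The weak end of the list was thin. Only 198 peaks (1.42%) had a −log10 p under 8, whereas 1192 lay between 14 and 15, the fullest step of 1 unit. The lowest, 5.13, was the 84-bp peak on Scaffold2398 at 49069 to 49152, where 20 fragments (12.2 to 30.9) stood against an input of 6.68. Scaffold60691 at 4382 to 4465 followed with 19 fragments over 5.65, and Scaffold19680 at 3876 to 3977 with 29 over 10.8. Their fold enrichments were 2.73, 3.01 and 2.54. The weakest of the wider classes were Scaffold13940 at 6352 to 6505, with 24 fragments (2.87-fold), and Scaffold4205 at 91042 to 91302, with 25 fragments (4.62-fold). The number of listed peaks thus fell off well before the lowest value of the list. The list has no width under 84 bp and the settings of the caller are not known. How many weaker or shorter stretches were left out is therefore unknown.

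The 3 peaks of lowest fold enrichment were other than the 3 of lowest −log10 p, but both sets were low by both measures. All lay below the 5th percentiles of the list, 3.63 for fold enrichment and 9.43 for −log10 p. The lowest fold enrichment, 1.81, belonged to the peak on Scaffold3405 at 18756 to 18839, where 102 fragments stood against an input of 56.03, at a −log10 p of 7.91. Scaffold13464 at 3448 to 3539 had 113 fragments against 61.7, or 1.82-fold. Scaffold2484 at 36033 to 36117 had 83 fragments against 42.7, or 1.92-fold. All 3 had a scaled input more than 20 times the genome-wide mean.

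Summits sat near the middle of their peaks, except in the widest ones. The summit is the base with the most ChIP fragments. Its median position was 0.49 of the width from the start (0.48 to 0.49), with quartiles of 0.40 and 0.57. The median summit lay 1 bp before the midpoint, and 51.8% of summits lay before it, 46.8% after and 1.39% on it; positions are whole bases, so a shift of this size is at the resolution of the list. Within 10 bp of the midpoint were 8129 summits (58.2%, exact binomial 95% interval 57.3% to 59.0%).

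This centring held up to 150 bp of width and then gave way. Summits within 10 bp of the midpoint made up 58.4% of the 1826 peaks of 84 bp, 60.5% of those of 85 to 100 bp and 61.5% of the 4511 peaks above 100 and up to 150 bp (60.1% to 62.96%). They made up 23.0% of the 860 peaks above 150 and up to 250 bp (20.2% to 25.98%) and 4 of the 33 wider ones. In the last 3 classes the median distance from the midpoint was 8 bp, 23.5 bp and 69 bp. Wider peaks offer more room for the summit to move, so a fixed 10 bp is a stricter limit in them. On Scaffold7347 the summit was base 203 of 267, and on Scaffold1486 it was base 59, towards the start. On Scaffold11110 and Scaffold3648, with peaks of 135 and 132 bp, it was base 67 in both. In the sea urchin list, 39.9% of the 1354 peaks above 100 and up to 150 bp had a summit within 10 bp of the midpoint. This is set beside the 61.5% of the sea star with no test. The shortest widths of the lists, 96 bp and 84 bp, differ, and so do species, antibody and stage.

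**Figure D3:**
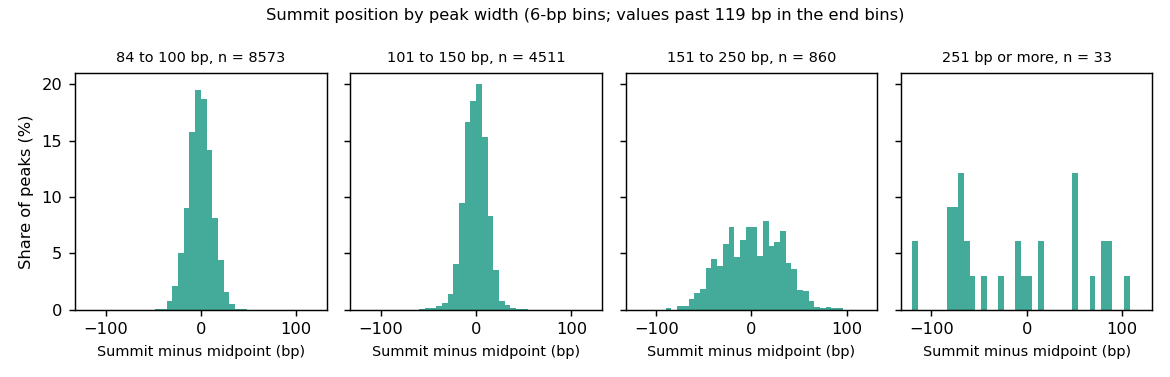
Distance of the summit from the midpoint of its peak (bp, negative towards the start) in 4 classes of width, as a share of the peaks of the class. The distribution is a single hump up to 150 bp and broad above 150 and up to 250 bp, where 23.0% of summits lie within 10 bp of the midpoint.

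Where a scaffold held several peaks, neighbouring summits were most often many kilobases apart, with a second group well below 1000 bp. The 5486 pairs of neighbouring summits had a median gap of 6632.5 bp (6253 to 7188), with quartiles of 1001.25 and 19649.5 bp. A gap can be measured only within a scaffold, so scaffold ends cut off long gaps, and the 5472 peaks alone on their scaffold gave none. The median gap and the share of gaps up to 1000 bp therefore lean towards short distances, by an amount that was not measured. Counted per 100 bp of distance, there were 44 pairs below 100 bp, 340 at 100 to 200 bp, 302 at 200 to 300 bp, 167 at 300 to 400 bp and 132 at 400 to 500 bp. The number fell to 41.8 per 100 bp at 1000 to 2000 bp and to 16.0 at 5000 to 10000 bp. In steps of 20 bp the fullest was 160 to 180 bp with 88 pairs, beside 69 at 140 to 160 bp and 77 at 180 to 200 bp, and the Poisson intervals of these counts overlap. No intervals of the list overlap and each is at least 84 bp wide, which limits how many gaps can be under about 100 bp. Chromatin was cut with micrococcal nuclease, which cuts between nucleosomes, and whether this spacing follows nucleosomes was not tested.

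**Figure D4:**
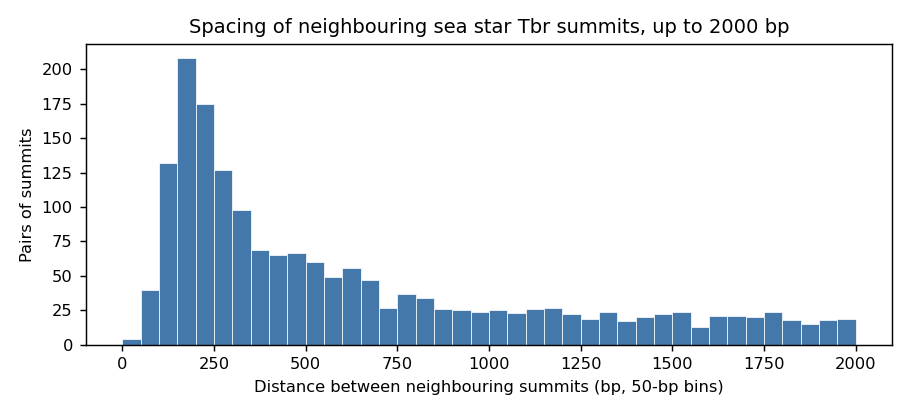
Number of pairs of neighbouring sea star summits by their distance in 50-bp bins, up to 2000 bp. The bins from 100 to 300 bp are the fullest, and the counts level off past about 1000 bp.

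Close summits came mostly as simple pairs. Chaining summits at most 1000 bp apart gave 966 runs of 2, 112 of 3, 27 of 4 and 16 of 5 or more, and left 11486 summits on their own. The runs of 2 spanned 271.5 bp at the median and had a median fold enrichment of 6.07 over a scaled input of 4.11. The runs of 3 had 5.55 over 4.63, the runs of 4 had 5.08 over 7.71, and the runs of 5 or more had 2.99 over 31.5. Longer runs thus stood on higher input. Without the 18 crowded scaffolds the runs of 5 or more fell to 6, with a median fold enrichment of 3.85 over a scaled input of 19.3, and 939 runs of 2, 99 of 3 and 22 of 4 were left.

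The longest run was on Scaffold3646 at 59177 to 65698, with 16 summits, a median of 86.5 fragments and a fold enrichment of 3.10. Scaffold3405 at 31780 to 36445 had 12 summits and a median fold enrichment of 2.63. Outside the crowded scaffolds, Scaffold15163 at 2522 to 4124 had 7 summits in 1451 bp, with a median fold enrichment of 4.72 over a scaled input of 8.74. Scaffold2528 at 87559 to 89176 had 6 summits with medians of 48 ChIP fragments, 6.68 fragments of scaled input and 6.04-fold enrichment. That enrichment is near the median of the whole list, while its fragments and input are above the list's medians of 26 and 3.33. Scaffold5652 at 32985 to 35092 also had 6 summits, at 2.87 over 42.4. All these runs were picked with their values in view.

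The closest pair lay on Scaffold36, with summits 25 bp apart at 121618 and 121643. Its 2 intervals, 121539 to 121627 and 121633 to 121716, had 21 and 19 fragments at their summits, and both summits lay at the facing ends. On Scaffold56368 the summits were 39 bp apart, with 21 and 18 fragments. On Scaffold31733 they were 40 bp apart, with 41 and 36 fragments over the same scaled input of 11.3. In each pair the Poisson intervals of the 2 summits overlap. The summits are closer than the fragment length of 84 bp, so the 2 counts can share fragments and are not independent. Of scaffolds with 3 or more summits, Scaffold767 had the smallest median gap, 80.5 bp, with 33, 32 and 36 fragments as median, lowest and highest. Scaffold576 followed with 4 peaks and 129 bp, and Scaffold13152 with 3 peaks and 163 bp. Over the whole list, 347 pairs of neighbouring intervals had less than 84 bp between their edges.

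Peaks with a close neighbour were somewhat weaker against their background, although they had more ChIP fragments. The 761 peaks with another summit within 200 bp had medians of 29 ChIP fragments, 4.11 fragments of scaled input and 5.70-fold enrichment. The 1730 peaks whose nearest summit was more than 200 and up to 1000 bp away had medians of 32, 4.58 and 5.67-fold. The 4273 peaks whose nearest was more than 5000 bp away had medians of 26, 3.08 and 6.22-fold, and so did the 5472 peaks alone on their scaffold. Widths over 150 bp were found in 37 of 761 (4.86%), 161 of 1730 (9.31%), 270 of 4273 (6.32%) and 315 of 5472 (5.76%) of these groups. Intervals do not overlap, so peaks with a summit within 200 bp have less room to be wide.

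The share of peaks with a neighbour went up with the input. Of the 7081 peaks with a scaled input below 2 times the genome-wide mean, 12.4% had another summit within 1000 bp. The share was 17.8% at 2 to 3 times the mean, 24.0% at 3 to 5, 34.6% at 5 to 10, 54.4% at 10 to 20 and 74.8% of the 115 peaks at 20 to 40 times. With the 18 crowded scaffolds left out, the last 2 shares were 39.2% and 60.3% and the first was 12.4%. Of the whole list, 50.7% lay below 2 times the mean and only 2.53% at 10 times or more, so peaks of high input make up little of the list as a whole.

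Neighbouring peaks resembled each other in ChIP fragments and in input, and the likeness was about level up to 1000 bp and lower beyond. For pairs up to 200 bp apart (n = 386) the Pearson correlation of log2 ChIP fragments was 0.74, and that of log2 scaled input was 0.81. They were 0.78 and 0.83 at 200 to 500 bp (n = 601) and 0.78 and 0.79 at 500 to 1000 bp (n = 383). For pairs at 1000 to 5000 bp (n = 1080) they were 0.64 and 0.67, at 5000 to 20000 bp (n = 1686) 0.26 and 0.28, and above 20000 bp (n = 1350) 0.00 and 0.02. Without the crowded scaffolds the correlations of ChIP fragments were 0.66 up to 200 bp and 0.49 at 1000 to 5000 bp, and those of scaled input 0.74 and 0.53. Fold enrichment followed less closely, with 0.39 up to 200 bp, 0.497 at 200 to 500 bp and 0.54 at 500 to 1000 bp. Further out it was 0.40 at 1000 to 5000 bp, 0.09 at 5000 to 20000 bp and -0.02 beyond. Peak widths of neighbours were hardly related, at 0.00 up to 200 bp and 0.18 at 200 to 500 bp. Intervals do not overlap, which limits the widths that the closest pairs can have. All pairs share 1 ChIP and 1 input library, and close pairs can share ChIP fragments and the same input window, so these correlations are descriptions.

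**Figure D5:**
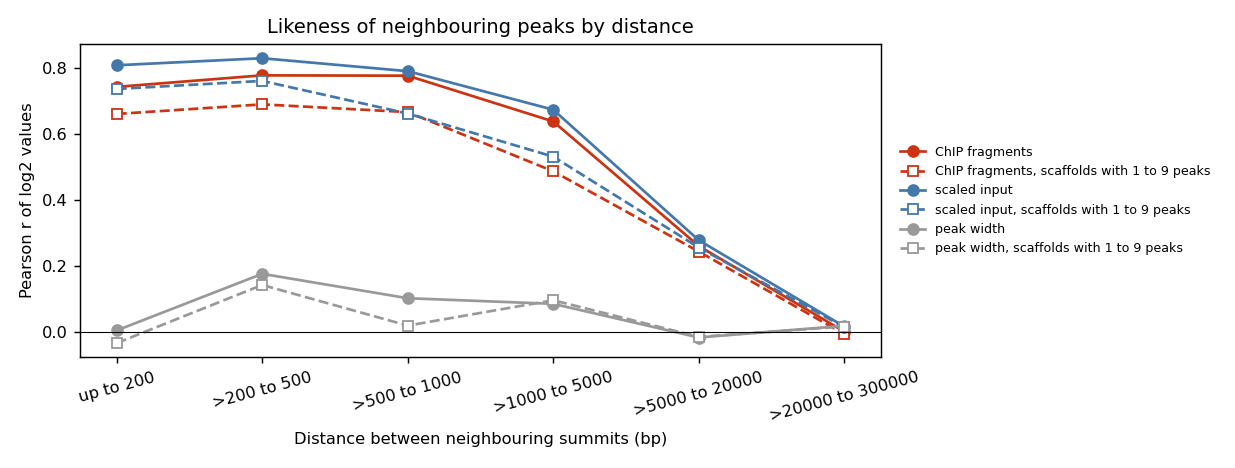
Pearson correlation of log2 values between neighbouring peaks, by the distance of their summits; filled symbols are all scaffolds, open symbols scaffolds with 1 to 9 peaks. ChIP fragments and scaled input are about level up to 1000 bp, from 0.74 and 0.81 in the first class, and reach 0.00 and 0.02 above 20000 bp, and widths stay at or below 0.18.

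The input that set the background was mostly that of the immediate surroundings. For 10194 peaks (72.9%) the scaled input was the input in a window of 1 fragment length around the summit, which held 8 input reads at the median and 132 at most. For 1851 peaks (13.2%) it was the window of 1 kb, with 61 input reads at the median, and for 426 (3.05%) the window of 10 kb. The genome-wide mean was the background of 1506 peaks (10.8%), whose median fold enrichment was 7.94. Peaks with the 1-fragment window had a median of 5.67, and those with the 1-kb window 6.88. The caller takes the highest of the 4 values, so a background of a few reads in the shortest window carries counting error into the fold enrichment. Across the list, log2 ChIP fragments and log2 scaled input correlated at 0.81, where a peak is listed only if the first exceeds the second by enough.

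Depth set the precision of single peaks. Computed from the lowest background in the list, the peak calling used 21.1 ChIP reads and 41.0 input reads per kb. Whether these were all reads of the libraries is not known, since the peak names carry a run name containing "sub" whose meaning is not stated. The values also depend on the fragment length of 84 bp taken here and on the genome size given to the caller, a setting not known here. The median peak rested on 26 fragments at its summit, 5% of peaks on 18 or fewer and 1% on 97 or more.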

How the data were processed

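The submitters' processing notes name MACS2 2.1.0, Bowtie2 2.2.2, CASAVA 1.8 and SAMtools 0.1.19, with no roles. Settings, thresholds and genome build: not given in the sources used here. Deposited for the sea star was a list that holds 1 interval per peak with a fold enrichment (a ratio of ChIP to background at the summit), −log10 p, −log10 q, a score (by its values, the whole part of 10 times −log10 p) and a summit; the submitters called it on 1 ChIP library against 1 input library. Positions are 1-based.

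Computed here (Python 3.11.15, SciPy 1.17.1): widths, gaps and summit positions, and, for each peak, the whole number of ChIP fragments up to 599 that gives the deposited −log10 p under a Poisson background with 1 added to both sides of the fold. It was met within 0.001 for 100% of peaks (largest error 0.000151, next best number off by at least 0.00269). Recovery was also tested on data simulated with the same formula, which checks the computation and not the model. Scaled input came in steps of 0.514 ChIP reads per input read. Intervals cover counting error alone; no molecular identifiers mark single molecules.

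Members, classes and naming rules were chosen with earlier results of these data known. Peaks named are the 2 of highest −log10 q and the weakest of 4 width classes, the 5 of highest and 3 of lowest fold enrichment, the 3 of lowest −log10 p, the 5 of highest −log10 q in the first 300 bases and the 3 closest pairs; scaffolds named are the 5 with most peaks, the 5 of longest span and the 3 of smallest median gap. Others were chosen after their values were seen.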

Additional observations from a re-analysis of the deposited data

How the results depend on the processing

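Of 48 recomputed values, 28 stayed within the main interval (counts: within 1.5 times). The 28 include all 10 numbers of peaks and scaffolds, which were held only to the 1.5-fold limit and did fall. When −log10 q had to reach 10, 9574 of the 13977 peaks and 6470 of the 8491 scaffolds were left. With 5 as the lowest fold allowed, 10598 peaks and 7146 scaffolds were left. Merging close intervals cannot change the number of scaffolds. The share of peaks alone on their scaffold, 39.2%, was 48.2% at a −log10 q of 10 or more, 47.0% at a fold enrichment of 5 or more, 37.1% without summits in the first 300 bases and 43.1% with intervals within 200 bp merged. With that limit on q the median width was 98 bp, the median summit position 0.49, the median fold enrichment 6.86, the median summit 29 fragments and the share at the genome-wide mean 11.8%. At a fold enrichment of 5 or more the median gap was 8902.5 bp, the share of gaps of 1000 bp or less 19.2% (24.97% in the full list), the median fold enrichment 6.72 and the share at the genome-wide mean 14.2%. Without scaffolds of 10 or more peaks the median gap was 7298.5 bp and the share of close gaps 23.6%. With intervals within 200 bp merged, the median width was 96 bp, the median gap 8933 bp and the share of close gaps 13.3%. That share was 17.99% at 500 bp and 32.6% at 2000 bp. With 500 bp as the longest gap, added after seeing the data, runs of 3, 4 and 5 or more numbered 64, 11 and 8. The limits on q and fold keep 14 and 13 of the 28 named peaks, beside 9574 and 10598 of the 13977 peaks of the list. Many named peaks were chosen as highest or lowest by such values, so how many pass follows largely from that choice. No paired analysis was possible because there was 1 library per group, and no replicate could be left out. Depth limits single peaks, whose counting intervals are wide.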
